A study of Mus musculus with 12 samples.

Results

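Clodronate liposomes were set against empty liposomes in the olfactory epithelium of mice whose olfactory bulbs had been removed. The members are the 3 arrays titled as Lip-C with bulbectomy (Lip-C OBX) and the 3 titled as Lip-O with bulbectomy (Lip-O OBX), 6 of the 12 arrays of the series, taken by their titles alone. All mice were wild type C57BL/6J males aged 6 weeks. Lip-C OBX mice received 50 µl of clodronate liposomes into the nose on each of 3 days and 200 µl into the tail vein on 2 of those days, bilateral bulbectomy fell on the middle day, and the epithelium was microdissected 48 h after surgery. Lip-O OBX mice received liposomes without clodronate by the same routes, in the same volumes and on the same days, followed by the same surgery. The other 6 arrays, used here only for comparison, came from Lip-C sham and Lip-O sham mice that had the same injections and a sham operation. The titles name 3 biological replicates per group. The labels do not say whether an array holds RNA of 1 mouse or of several, so p-values measure the spread between these samples, which may be partly technical.

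The olfactory epithelium replaces its sensory neurons throughout life. Globose basal cells pass through proneural stages marked by transcription factors such as Neurog1 and Neurod1, then become immature neurons and finally mature neurons that express Omp and send an axon to the bulb. Removal of the bulb cuts those axons, so mature neurons die, macrophages enter and clear debris, and basal cells divide to make new neurons. Macrophages take up liposomes, and clodronate released inside them kills them, which is why such liposomes are used to deplete phagocytes in the nose and the blood. The series' design text names macrophage roles in degeneration, protection and neurogenesis as the subject of the study.

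The values are Affymetrix probe set signals on a linear scale that the authors had scaled to 1 level per array. They were analysed as log2(signal + 16) for 13628 genes in a limma model of all 4 groups. A gene is said to have risen or fallen if its Benjamini-Hochberg adjusted p over all genes was under 0.05, and differences are Lip-C OBX minus Lip-O OBX on that log2 scale with their standard error. Median signals of the 6 OBX arrays ran from 124.7 to 134.1. Arrays of 1 group correlated at r = 0.970 to 0.987 across genes and the Lip-C OBX arrays correlated with the Lip-O OBX arrays at r = 0.969 to 0.983. On the leading principal component, which held 32.9% of the variance and set all OBX arrays apart from all sham arrays, replicate 3 of both OBX groups lay nearest to the sham arrays, at -2.75 for Lip-C OBX and -10.5 for Lip-O OBX, against -20.7 to -27.2 for the other 4. Among the OBX arrays alone, the component with 24.7% of the variance placed these 2 arrays at -19.2 and -19.7 and the other 4 between 5.80 and 11.7. Results that rest on 1 array are given with that array left out, and no exact permutation test of 3 arrays against 3 can give a p under 0.1.

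In all, 47 of 13628 genes passed the threshold between Lip-C OBX and Lip-O OBX mice (0.345%). Of these, 17 rose with Lip-C (0.125% of all genes) and 30 fell (0.22%). The groups of all 47 did not overlap, as was true of 16% of all genes (8.22% higher and 7.81% lower). The median change over all genes was 0.01 and its median standard error 0.12, and 51.3% of the changes were above 0. At an unadjusted p under 0.05, 1730 genes differed (12.7%), 901 higher (6.61%) and 829 lower (6.08%). These shares are the background for the OBX counts of each list below, whose members may vary together. The genes that rose were Fgf21, Nr4a3, Gcnt7, Ms4a3, F13a1, Rab44, Chad, Chac1, Usp21, Tex52, Asns, Odf2l, Nr4a1, Jdp2, Dnah7a, Cyp2s1 and Smim5. Those that fell included the proneural factors Neurog1 and Neurod1, the peptide genes Grp, Nmb and Scg2, and Alb. The number of calls changed with the array left out. Leaving out Lip-O OBX replicate 1 gave 7 calls and leaving out replicate 3 of that group gave 76. Leaving out a Lip-C OBX array gave 13 calls (replicate 1) or 19 (replicates 2 and 3). Alb, Ntn5 and 3110040M04Rik passed the brightness filter on the Lip-O OBX arrays alone, so a difference from dimmer groups was a condition of their being tested. Bhmt passed on those 3 arrays and 1 Lip-O sham array, so it needed the Lip-O OBX arrays too. Rab44 passed on Lip-C arrays alone and St18 on Lip-O arrays alone, in each case in both OBX and sham mice. Fgf21 passed on 3 arrays of each Lip-C group and 1 Lip-O sham array, so it needed Lip-C arrays. Elovl2 passed on 3 arrays of each Lip-O group and 1 of each Lip-C group, so it needed Lip-O arrays. The 6 OBX arrays fitted alone gave 2 calls, and 42 of the 47 genes lost their call in at least 1 fit that left out an OBX array.

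**Figure D1:**
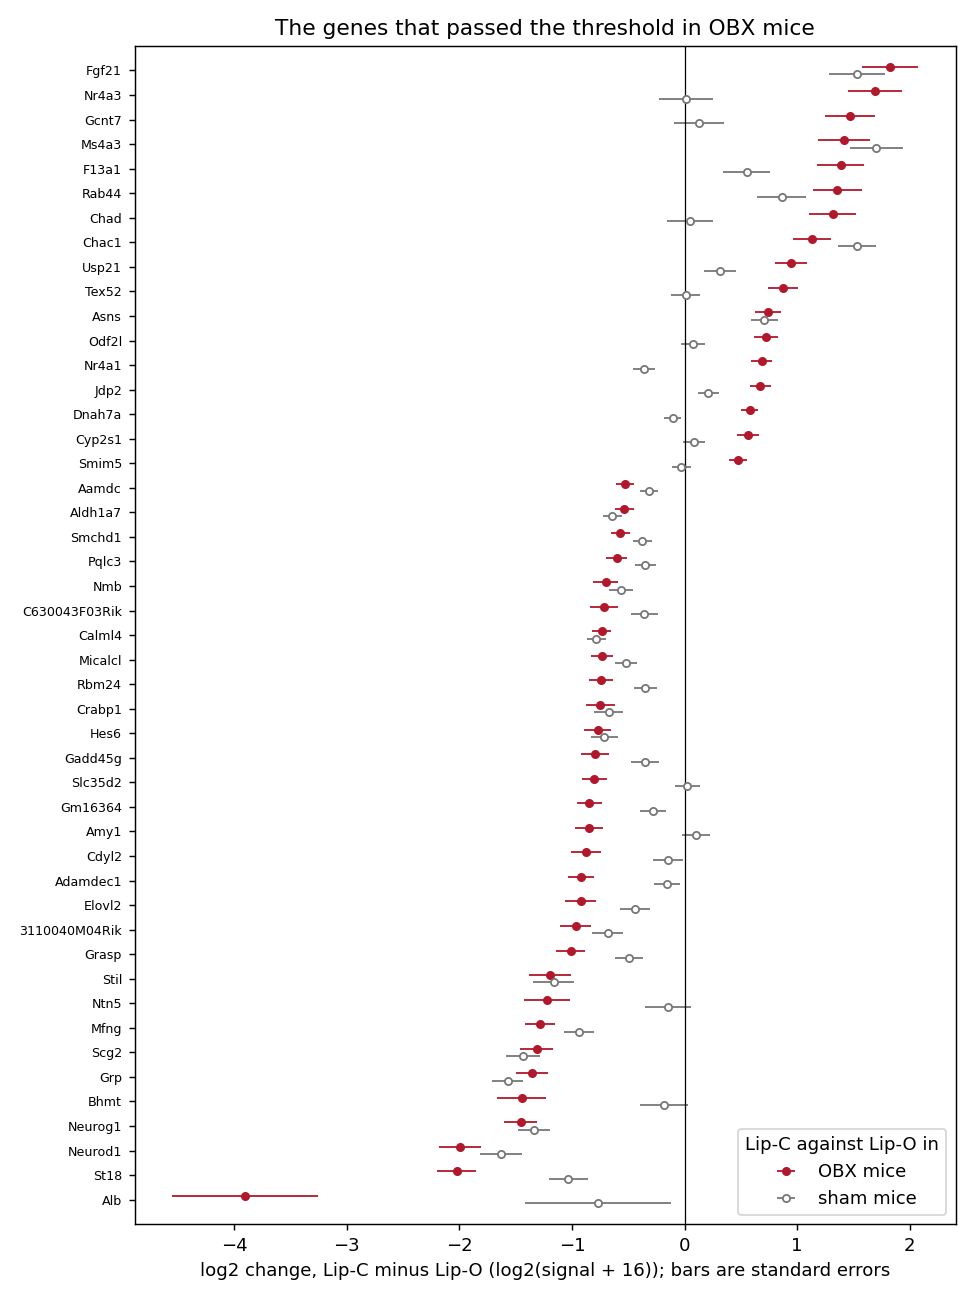
Log2 change (Lip-C minus Lip-O, log2(signal + 16)) of the 47 genes that passed the threshold, with filled red points for OBX mice, open grey points for sham mice and bars for standard errors (n = 3 arrays per group). In OBX mice 17 genes lie right of 0 and 30 left of it, and in sham mice 14 of the 17 and 28 of the 30 lie on the same side. For 8 genes 1 OBX group was dim, so their points understate the difference in signal.

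The labels give depletion of macrophages as the aim of the treatment, and genes of these cells gave 1 call in OBX mice at this time. Of 35 tested macrophage and monocyte genes, 1 rose, F13a1, and none fell. At an unadjusted p under 0.05, 2 were higher and 2 lower, and the median change was 0.00. Cd68, a lysosomal glycoprotein of macrophages, had signals of 1018.5, 1101.9 and 851.1 in Lip-C OBX mice, against 1312.4, 989.4 and 655.5 in Lip-O OBX mice. The ranges overlapped, and the change was 0.05 ± 0.25 (95% interval -0.51 to 0.62, adjusted p = 0.952). Adgre1, which encodes F4/80, had 380.1, 328 and 260.2 in Lip-C OBX mice, against 398.2, 325.5 and 234 in Lip-O OBX mice, a change of 0.03 ± 0.19 with an interval of -0.39 to 0.45. In both groups replicate 3 had the lowest signal of both genes. Csf1r, the receptor that macrophages need to survive, changed by -0.28 ± 0.18 in OBX mice (95% interval -0.67 to 0.11). In sham mice Csf1r fell (-0.83, adjusted p = 0.0426). There 2 of the 35 genes fell and none rose, and the median of the list was -0.20. The mean level of the list, as log2(signal + 16), was 9.11, 9.07 and 8.69 in Lip-C OBX mice, against 9.28, 8.84 and 8.71 in Lip-O OBX mice, so the groups overlapped. In such bulk tissue fewer cells of a type and less RNA per cell cannot be told apart.

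F13a1, the one call in that list, encodes the A subunit of coagulation factor XIII and is a gene of monocytes and tissue macrophages. It had signals of 1466.6, 969.8 and 748.8 in Lip-C OBX mice, against 349.3, 381.4 and 414.9 in Lip-O OBX mice. All Lip-C OBX values lay above all Lip-O OBX values, and F13a1 rose by 1.39 ± 0.21 (adjusted p = 0.0209). In sham mice its change was 0.55 ± 0.21 (adjusted p = 0.16). The mannose receptor Mrc1 had 444.8, 444.8 and 296.6 in Lip-C OBX mice, against 475.2, 499.6 and 580.3 in Lip-O OBX mice (-0.40 ± 0.15, adjusted p = 0.313). Fcgr1, the high affinity receptor for IgG, had 104.7, 89.5 and 70.8 in Lip-C OBX mice, against 214, 132.8 and 162.8 in Lip-O OBX mice (-0.82 ± 0.25, adjusted p = 0.202). Emilin2, a matrix protein, changed by 0.63 ± 0.14 (adjusted p = 0.109). The groups of these 3 genes were separate, but none passed. Of 26 genes of lysosomes and uptake none passed, and their median change was -0.05. Ctsd, a lysosomal protease, changed by -0.06 ± 0.10 and Lamp1, a lysosomal membrane protein, by 0.05 ± 0.07. The F13a1 call was lost without Lip-C OBX replicate 2, Lip-O OBX replicate 1 or Lip-O OBX replicate 2 (adjusted p from 0.0584 to 0.106).

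Ms4a3 and Rab44, genes of immature and granulated myeloid cells, rose. Ms4a3, a membrane protein of granulocyte and monocyte progenitors, had signals of 444.9, 308.8 and 226.3 in Lip-C OBX mice, against 88.3, 116.7 and 122.2 in Lip-O OBX mice. It rose by 1.42 ± 0.23 (adjusted p = 0.0315), and by 1.70 ± 0.23 in sham mice (adjusted p = 0.0137). Rab44, a large Rab GTPase of granulated cells, had 154.4, 137.6 and 135.7 in Lip-C OBX mice, against 61.5, 56.7 and 26 in Lip-O OBX mice, where it was dim. A group is called dim if its mean signal lay under 71.7, the mean 40th percentile of the arrays, and the log2 change is then not given. Rab44 rose (adjusted p = 0.0266), and every Lip-C OBX array was above every Lip-O OBX array. Of 13 granule genes of myeloid progenitors 1 rose, Ms4a3, and 8 were higher at an unadjusted p under 0.05, with a median change of 1.46. Mpo, the myeloperoxidase of primary granules, had 2408.4, 1788.3 and 1142.6 in Lip-C OBX mice, against 260.1, 405.3 and 201.6 in Lip-O OBX mice. Its groups did not overlap, but its change of 2.55 ± 0.57 missed the threshold (adjusted p = 0.109). The mean level of the 13 genes was 10.61, 10.37 and 9.66 in Lip-C OBX mice and 9.41, 9.29 and 8.81 in Lip-O OBX mice. It was 10.09, 9.79 and 10.45 in Lip-C sham mice and 8.67, 9.28 and 8.75 in Lip-O sham mice, so Lip-C arrays were higher under both operations.

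Markers of mature neutrophils gave no call. None of 13 passed, 3 were higher at an unadjusted p under 0.05, and the median change was 0.31. S100a8, a calcium-binding protein of neutrophils, had 14739, 14976.5 and 9482.8 in Lip-C OBX mice, against 7473.7, 6836.7 and 5935.6 in Lip-O OBX mice (0.93 ± 0.31, adjusted p = 0.253). Its groups were separate without passing. S100a9, its partner, changed by 1.09 ± 0.40 (adjusted p = 0.281). The count of 3 became 5 without Lip-O OBX replicate 1. It became 2 without Lip-C OBX replicate 1 or 2 or Lip-O OBX replicate 3. The Ms4a3 call was lost without Lip-C OBX replicate 1 or 2, Lip-O OBX replicate 1 or 2, Lip-C sham replicate 1 or 2, or Lip-O sham replicate 3 (adjusted p from 0.053 to 0.169). The Rab44 call was lost without any Lip-C OBX replicate, without Lip-O OBX replicate 1 or without Lip-C sham replicate 3 (adjusted p from 0.052 to 0.134).

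Of 23 tested genes of neuronal precursors 5 fell and none rose, and 11 were lower at an unadjusted p under 0.05. Neurog1, a bHLH factor that commits progenitors to the neuronal fate, had signals of 123.8, 133.8 and 111.7 in Lip-C OBX mice, against 436.7, 349.4 and 316.5 in Lip-O OBX mice. Neurog1 fell by 1.45 on the log2 scale (SE 0.15, adjusted p = 0.00396). Neurod1, which acts after it, had 273.6, 341.9 and 253.9 in Lip-C OBX mice, against 1130.1, 1276.2 and 1175.1 in Lip-O OBX mice, a change of -1.99 ± 0.19 (adjusted p = 0.00362). For both genes the highest Lip-C OBX array was far below the lowest Lip-O OBX array. St18, a zinc finger factor of the Myt1 family, had 26.1, 32 and 46.4 in Lip-C OBX mice, where it was dim, against 182.9, 188.2 and 193.5 in Lip-O OBX mice. It had the smallest adjusted p of all genes, 0.003.

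Hes6, a bHLH factor that favours neuronal differentiation, had 756, 916.1 and 813.6 in Lip-C OBX mice, against 1503.2, 1550.5 and 1227.4 in Lip-O OBX mice (-0.77 ± 0.12, adjusted p = 0.0238). Gadd45g, a growth arrest protein expressed where neurogenesis starts, had 364.4, 288.5 and 278.6 in Lip-C OBX mice, against 626.8, 517.9 and 504.8 in Lip-O OBX mice (-0.80 ± 0.12, adjusted p = 0.0209). Of the 23 precursor genes 21 had a change below 0, and their median change was -0.29. Nhlh2, a bHLH factor of postmitotic precursors, came close at -0.71 ± 0.13 (adjusted p = 0.0525), and the RNA-binding protein Elavl4 changed by -0.55 ± 0.11 (adjusted p = 0.0779). Neurog1, Neurod1 and St18 passed whichever array was left out. The Hes6 call was lost without any OBX array but Lip-O OBX replicate 3 (adjusted p from 0.0538 to 0.131). The Gadd45g call was lost without Lip-C OBX replicates 2 or 3 or Lip-O OBX replicates 1 or 2 (adjusted p from 0.0513 to 0.106).

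The gene Mfng, the Manic fringe glycosyltransferase that modifies Notch receptors, fell with these factors. Its signals were 170.2, 139.6 and 149.4 in Lip-C OBX mice, against 398.7, 461.2 and 333.6 in Lip-O OBX mice, a change of -1.28 ± 0.13 (adjusted p = 0.00396). Mfng was the sole gene of 27 in the Notch pathway to pass, and the median change of the list was -0.02. Notch1, a receptor, had 337.5, 495.5 and 251.7 in Lip-C OBX mice, against 502.2, 523.8 and 476.1 in Lip-O OBX mice (-0.50 ± 0.21, adjusted p = 0.361). Stil, a centriole duplication protein of dividing cells, had 216.5, 183 and 119.7 in Lip-C OBX mice, against 404, 389 and 427.4 in Lip-O OBX mice, a change of -1.20 ± 0.18 (adjusted p = 0.0209). None of 38 cell cycle genes passed, with a median change of -0.07. Mki67, a protein of dividing cells, had 1167.7, 1611.1 and 973.8 in Lip-C OBX mice and 981.1, 1719.6 and 1072.5 in Lip-O OBX mice, so the groups overlapped (0.01 ± 0.32). The interval of that difference, -0.70 to 0.71, leaves room for sizeable changes. Top2a, the topoisomerase of dividing cells, changed by -0.36 ± 0.27. The Stil call was lost without Lip-C OBX replicate 2 or any Lip-O OBX replicate (adjusted p from 0.0549 to 0.106).

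**Figure D2:**
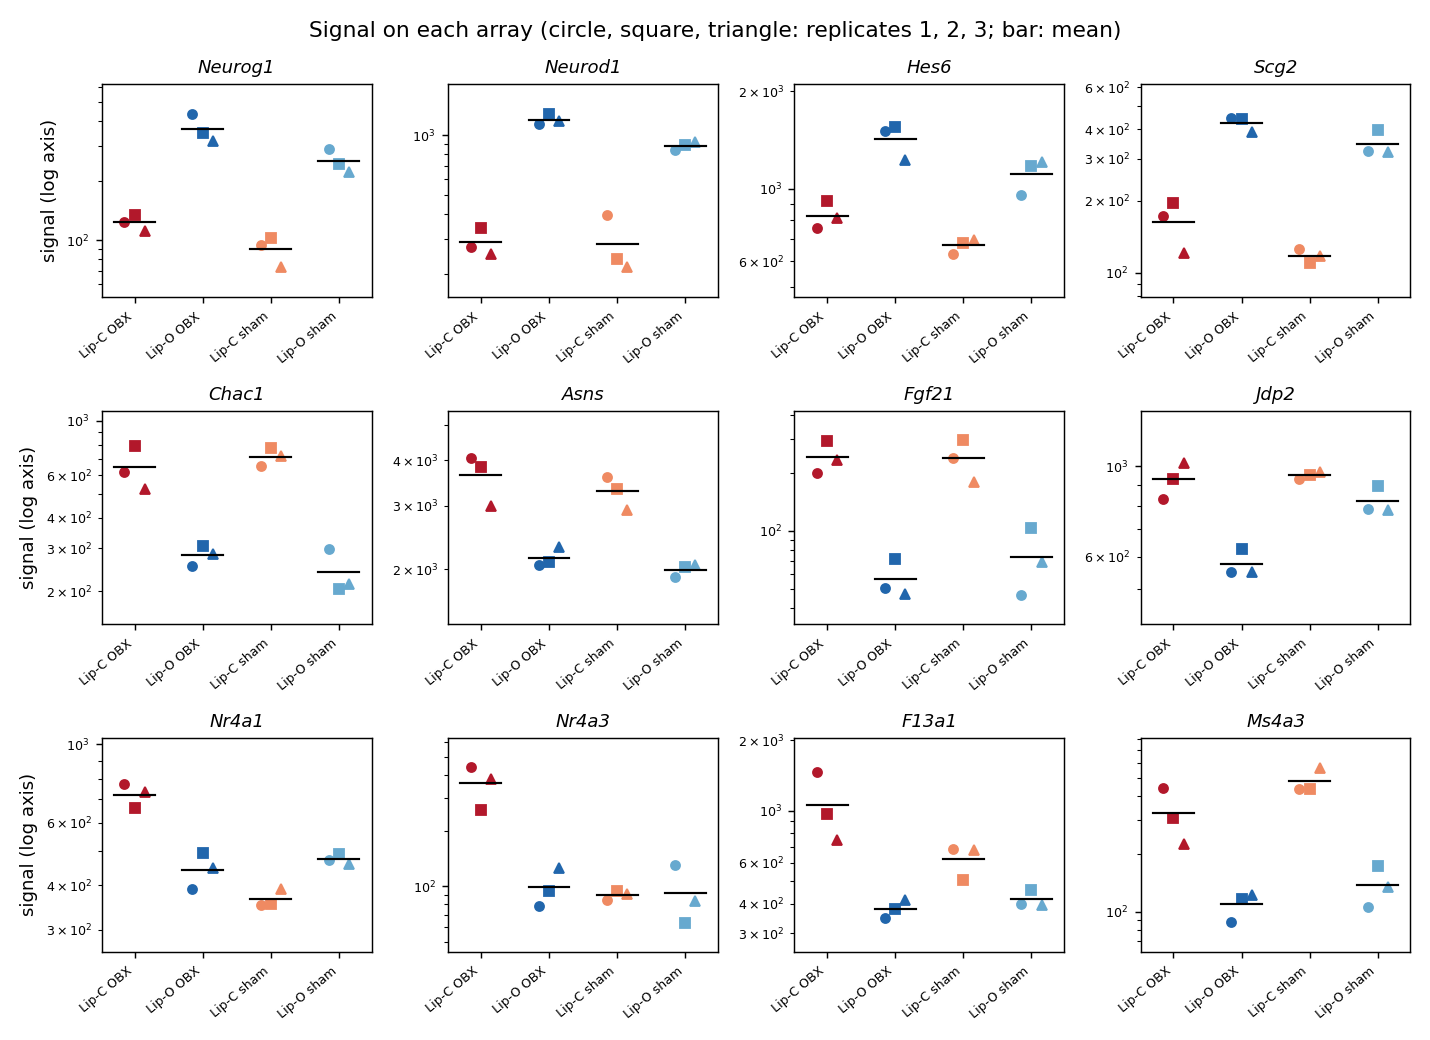
Signal on each array (log axis) for 12 genes that passed the threshold, with red and dark blue for the Lip-C OBX and Lip-O OBX groups and orange and light blue for the Lip-C sham and Lip-O sham groups. Circles, squares and triangles are replicates 1, 2 and 3, and the black bar is the mean. For Neurog1, Neurod1, Hes6 and Scg2 both Lip-C groups sit below both Lip-O groups, whereas for Nr4a1 and Nr4a3 the Lip-C OBX arrays alone stand high.

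The peptide genes Grp, Scg2 and Nmb fell in the same tissue. Grp, which encodes gastrin-releasing peptide, had signals of 109.3, 114.8 and 106.4 in Lip-C OBX mice, against 348.2, 324.4 and 255 in Lip-O OBX mice (-1.36 ± 0.14, adjusted p = 0.00396). Scg2, a granin of secretory vesicles, had 173.7, 196.7 and 121 in Lip-C OBX mice, against 445.3, 440.7 and 388 in Lip-O OBX mice (-1.31 ± 0.15, adjusted p = 0.00841). Nmb, which encodes the related peptide neuromedin B, had 281.1, 326.5 and 289.9 in Lip-C OBX mice, against 534.6, 488.1 and 466.7 in Lip-O OBX mice (-0.70 ± 0.11, adjusted p = 0.0209). Groups were separate for each of them. The other members of that list of 17 did not follow: 4 were higher at an unadjusted p under 0.05, among them the tachykinin precursor Tac1 (0.86) and the granin Chga (0.48), and the list's median was 0.10. Grp passed whichever array was left out, Scg2 did not pass once Lip-O OBX replicate 1 was left out (adjusted p = 0.0517), and Nmb did not without any OBX array but Lip-O OBX replicate 3 (adjusted p from 0.0538 to 0.11).

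Further along the lineage no gene passed. None of 25 genes of immature neurons passed, 4 were lower at an unadjusted p under 0.05, and the median was -0.14. Gap43, a growth cone protein, had 4171.3, 5073.6 and 4812 in Lip-C OBX mice and 5076.7, 5660.2 and 3415.2 in Lip-O OBX mice (0.02 ± 0.19). Stmn2, which regulates microtubules in growing axons, changed by -0.11 ± 0.11. None of 24 genes of mature neurons passed either, but 22 had a change above 0, 6 were higher at an unadjusted p under 0.05 and the median was 0.24. Omp, the marker of mature neurons, had 11678.6, 11605.8 and 13706.2 in Lip-C OBX mice, against 6768.5, 7543.1 and 11517.3 in Lip-O OBX mice. The groups were just separate, because Lip-O OBX replicate 3 came close to the Lip-C OBX arrays (0.55 ± 0.17, adjusted p = 0.209). Adcy3, the adenylyl cyclase of odour transduction, changed by 0.36 ± 0.22 (adjusted p = 0.534). In Lip-O sham mice Omp had 16164.5, 16196.6 and 18212.6, so every OBX array was lower. Without Lip-O OBX replicate 3 the change of Omp passed (adjusted p = 0.0211) and the 6 genes became 15, whereas the count was 4 without Lip-O OBX replicate 1 or 2 or Lip-C OBX replicate 3.

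The mean level of the mature neuron list was 11.38, 11.36 and 11.65 in Lip-C OBX mice, against 11.05, 11.04 and 11.53 in Lip-O OBX mice. Replicate 3 was the highest of its group in both, which is also where these 2 arrays stood apart on the principal components. Of 30 tested odorant receptors none passed and 3 were higher at an unadjusted p under 0.05, beside 6.61% of all genes, with a median of 0.24. That count became 8 without Lip-O OBX replicate 3 and 5 without Lip-C OBX replicate 2.

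**Figure D3:**
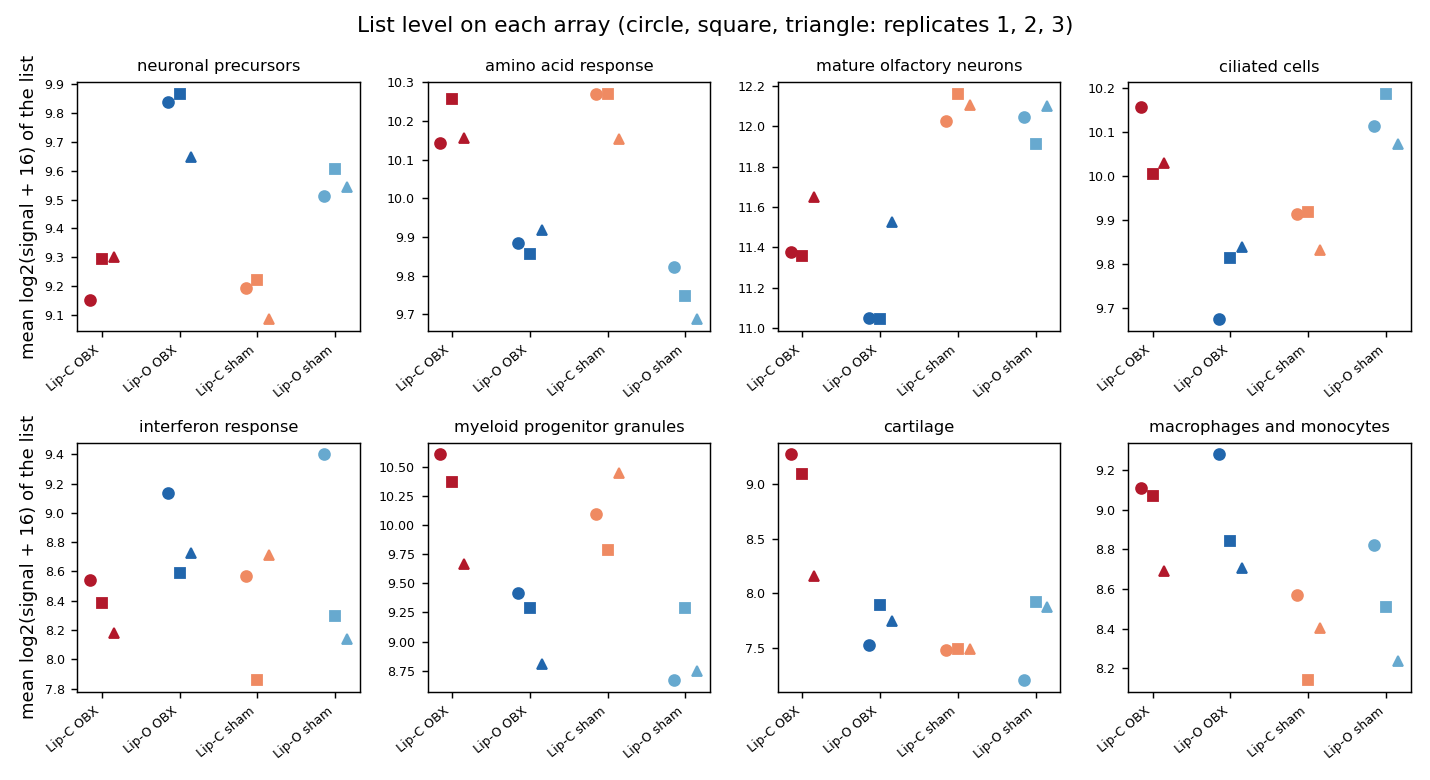
Mean log2(signal + 16) of the tested genes of 8 lists on each array, by group (left to right Lip-C OBX, Lip-O OBX, Lip-C sham, Lip-O sham), with circles, squares and triangles for replicates 1, 2 and 3. The precursor list is lower and the amino acid list higher on the Lip-C arrays under both operations. The cartilage list is high on the Lip-C OBX arrays, at 9.27, 9.08 and 8.16, and the macrophage list overlaps between the OBX groups.

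Of 34 genes of the response to amino acid shortage 4 rose and none fell. In that response a stalled supply of amino acids, or another stress that leads to phosphorylation of eIF2 alpha, raises the translation of the transcription factor ATF4, which with C/EBP partners binds the letters TGATGNAA near its targets. Chac1, a glutathione-degrading enzyme, had signals of 616.8, 791 and 526.5 in Lip-C OBX mice, against 253.8, 307.5 and 284.1 in Lip-O OBX mice (1.13 ± 0.17, adjusted p = 0.0209). Asns, which makes asparagine, had 4056.9, 3841.4 and 2996 in Lip-C OBX mice, against 2051.6, 2089.6 and 2311.9 in Lip-O OBX mice (0.74 ± 0.12, adjusted p = 0.0268). Fgf21, a metabolic hormone, had 199.7, 291.4 and 233.5 in Lip-C OBX mice, against 50.8, 71.7 and 47.1 in Lip-O OBX mice, where it was dim, and rose (adjusted p = 0.0182). Jdp2, a bZIP factor that pairs with Jun proteins, had 832.2, 931.1 and 1019.9 in Lip-C OBX mice, against 550, 627.3 and 548.7 in Lip-O OBX mice (0.67 ± 0.09, adjusted p = 0.0205). In none of the 4 did the groups overlap.

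Of the 34 genes 13 were higher at an unadjusted p under 0.05, and 25 had a change above 0. The median was 0.17. Aldh18a1, of proline synthesis, changed by 0.50 ± 0.09 (adjusted p = 0.0525), and Shmt2, which feeds serine carbon into mitochondrial folate, by 0.56 ± 0.11 (adjusted p = 0.0608). Phgdh, the entry enzyme of serine synthesis, had 1746.4, 1667.1 and 1321.8 in Lip-C OBX mice, against 1199.8, 1139.7 and 1030.9 in Lip-O OBX mice (0.48 ± 0.13, adjusted p = 0.152). Other members stayed near 0: Atf4 itself changed by 0.10 ± 0.08, Ddit3, which encodes CHOP, by 0.20 ± 0.18, and Trib3, a pseudokinase of the same response, by -0.14 ± 0.16. Of 19 aminoacyl-tRNA synthetases, which charge tRNAs with amino acids, none passed and 6 were higher at an unadjusted p under 0.05, with a median of 0.11. Wars and Sars, which charge the tRNAs of tryptophan and serine, changed by 0.14 ± 0.09 and 0.22 ± 0.09. That 6 became 3 without Lip-C OBX replicate 2, and 4 without Lip-C sham replicate 3, Lip-O OBX replicate 1 or Lip-O sham replicate 1.

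Calls of these 4 genes were also lost in several fits that left out 1 array. Chac1 lost its call without Lip-C OBX replicates 1 or 2 or Lip-O OBX replicate 1 (adjusted p from 0.0608 to 0.106). For Fgf21 and Jdp2 the call was lost without Lip-C OBX replicates 2 or 3 or Lip-O OBX replicate 1, with adjusted p up to 0.0866 and 0.0944. Asns lost it without Lip-C OBX replicates 1 or 2, Lip-O OBX replicates 1 or 2, or Lip-O sham replicate 2 (adjusted p from 0.0516 to 0.148). Sham mice are other arrays, but their standard errors come from the same model. In them Chac1 rose by 1.53 ± 0.17, Asns by 0.71 ± 0.12 and Fgf21 by 1.53 ± 0.25 (adjusted p = 0.00612, 0.0253 and 0.0238). Jdp2 changed by 0.21 ± 0.09 in sham mice (adjusted p = 0.221).

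The promoters of these 4 genes are printed because each holds the letters TGATGNAA or their reverse complement TTNCATCA, in capitals below. The windows run from 250 bases before to 50 bases after a RefSeq start site in GRCm38.p6, and each is given 5′ to 3′ on the gene's own strand.
Chac1 promoter, chr2:119350992-119351291, plus strand: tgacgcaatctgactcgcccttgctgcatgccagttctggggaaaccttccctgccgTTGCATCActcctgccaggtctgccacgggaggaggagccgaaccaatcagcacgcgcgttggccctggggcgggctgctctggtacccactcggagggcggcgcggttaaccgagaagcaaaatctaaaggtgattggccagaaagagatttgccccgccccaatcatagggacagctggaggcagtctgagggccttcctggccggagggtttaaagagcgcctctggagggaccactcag
Asns promoter, chr6:7693160-7693459, minus strand: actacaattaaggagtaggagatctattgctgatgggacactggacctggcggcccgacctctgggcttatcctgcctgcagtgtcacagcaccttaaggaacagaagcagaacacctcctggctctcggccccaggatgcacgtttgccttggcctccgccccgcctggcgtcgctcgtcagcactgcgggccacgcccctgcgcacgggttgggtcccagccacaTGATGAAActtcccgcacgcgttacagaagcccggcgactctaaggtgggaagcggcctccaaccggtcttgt
Fgf21 promoter, chr7:45615441-45615740, minus strand: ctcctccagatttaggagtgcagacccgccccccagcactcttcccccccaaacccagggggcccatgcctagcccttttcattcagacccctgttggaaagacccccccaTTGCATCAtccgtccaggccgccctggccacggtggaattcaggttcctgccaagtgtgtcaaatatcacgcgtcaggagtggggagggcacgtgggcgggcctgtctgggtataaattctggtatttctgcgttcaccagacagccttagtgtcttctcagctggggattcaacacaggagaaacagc
Jdp2 promoter, chr12:85599166-85599465, plus strand: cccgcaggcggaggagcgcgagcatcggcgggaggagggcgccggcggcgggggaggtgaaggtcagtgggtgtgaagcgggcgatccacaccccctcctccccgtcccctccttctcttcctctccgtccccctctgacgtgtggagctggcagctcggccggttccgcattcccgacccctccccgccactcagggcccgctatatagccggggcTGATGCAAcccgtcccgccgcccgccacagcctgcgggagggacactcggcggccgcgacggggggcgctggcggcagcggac
In Chac1 and Fgf21 the match reads TTGCATCA and begins 193 and 139 bases before the start site. It reads TGATGAAA in Asns, 23 bases before the start, and TGATGCAA in Jdp2, 33 bases before it.

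Jdp2 has 3 such windows in the table and the one shown is the second. With both strands searched, 4 of the 15 genes that rose and have a window held these letters (26.7%), as did 3 of the 24 that fell (12.5%: Crabp1, Gadd45g and Nmb). The shares were 2.85% of the 10940 tested genes with a window and 3.97% of all 32851 windows. Within the amino acid list it was 10 of 29 genes with a window (34.5%), and 5 of these 10 (Atf3, Herpud1, Slc7a11, Trib3 and Vldlr) were not higher at an unadjusted p under 0.05. The E-box CAGATG, a form that Neurog1 and Neurod1 bind, was in 3 of the 24 windows of genes that fell (12.5%), against 14% of tested genes. AAGGTCA, which Nr4a and other nuclear receptors bind, was in 1 of the 15 that rose, Jdp2 (6.67%), against 4.1% of tested genes. These matches describe letters in a window and nothing more.

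Nr4a1 and Nr4a3 rose. They belong to the Nr4a family of orphan nuclear receptors, which are early response genes. Nr4a3 had signals of 442.9, 259.5 and 379.1 in Lip-C OBX mice, against 78.2, 94.5 and 125.9 in Lip-O OBX mice (1.69 ± 0.24, adjusted p = 0.0205). Nr4a1 had 771.1, 660 and 731.7 in Lip-C OBX mice, against 390.6, 493.1 and 446.4 in Lip-O OBX mice (0.69 ± 0.10, adjusted p = 0.0205). For Nr4a2, the third member, signals were 422, 256.1 and 469 in Lip-C OBX mice and 123.2, 190.5 and 192.7 in Lip-O OBX mice. Its groups were separate but it missed the threshold (1.09 ± 0.22, adjusted p = 0.0809). The other immediate early genes did not follow: of 23 tested these 2 passed, 5 were higher at an unadjusted p under 0.05, and the median was -0.02. Fos, a partner of Jun in AP-1, changed by -0.12 ± 0.37 and the zinc finger factor Egr1 by -0.23 ± 0.26. In sham mice Nr4a3 changed by 0.01 ± 0.24, and Nr4a1 had 351.8, 353.4 and 390.8 in Lip-C sham mice, against 471.6, 490.8 and 458.5 in Lip-O sham mice. That is the opposite order, with separate groups (-0.36 ± 0.10, adjusted p = 0.0705). The Nr4a1 call was lost without Lip-C OBX replicates 1 or 3 or Lip-O OBX replicate 1 (adjusted p from 0.0504 to 0.0807), and that of Nr4a3 without those or Lip-O OBX replicate 2 (adjusted p from 0.0513 to 0.0944).

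Several genes had a level in Lip-C OBX mice between those of Lip-O OBX and sham mice. The comparison of Lip-O OBX with Lip-O sham mice shares the Lip-O OBX arrays with the main one, so its values are only set beside it. Gcnt7, of the family of glucosaminyltransferases that branch O-glycans, had 513.6, 507.3 and 728.7 in Lip-C OBX mice, against 128.7, 246.2 and 241.2 in Lip-O OBX mice (1.47 ± 0.22, adjusted p = 0.0209). In Lip-O sham mice it had 1146.7, 959.7 and 1025.8. Tex52 had 306.7, 402 and 480.3 in Lip-C OBX mice, against 210.9, 194.9 and 210.7 in Lip-O OBX mice (0.88 ± 0.13, adjusted p = 0.0209), and 840.5, 785.8 and 831 in Lip-O sham mice. Usp21, a ubiquitin protease, had 1683.4, 1693.6 and 2306.5 in Lip-C OBX mice, against 836.6, 1011.1 and 1059.8 in Lip-O OBX mice (0.95 ± 0.14, adjusted p = 0.0209), and 2733.7, 2541.7 and 2227.7 in Lip-O sham mice. Lip-C sham mice lay at or above the Lip-O sham level for these 3 genes, with changes of 0.13, 0.01 and 0.32 that did not pass.

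Odf2l, a protein of centrioles, behaved alike, with 501.8, 535.6 and 480.6 in Lip-C OBX mice, against 308.4, 328 and 267.1 in Lip-O OBX mice (0.72 ± 0.11, adjusted p = 0.0209). Dnah7a, a dynein heavy chain of motile cilia, had 271.3, 279.9 and 279.9 in Lip-C OBX mice, against 196.6, 181.1 and 164.5 in Lip-O OBX mice (0.58 ± 0.08, adjusted p = 0.0165). In Lip-O sham mice Dnah7a had 332.1, 338.7 and 359.9. Smim5 (0.48 ± 0.08) and Cyp2s1, a cytochrome P450 of epithelia (0.56 ± 0.10), also rose, with adjusted p of 0.0363 and 0.0421. Of 22 genes of ciliated cells none passed, 11 were higher at an unadjusted p under 0.05, 21 had a change above 0 and the median was 0.27. In sham mice this list went the other way, with a median of -0.28. There none was higher and 12 were lower at an unadjusted p under 0.05. The shares of all genes given above at that p are for OBX mice and are no background for this sham count. More genes differed in sham mice, where 2.1% of all genes passed the threshold, against 0.345% in OBX mice. Foxj1, the master factor of motile cilia, changed by 0.23 ± 0.15. Tppp3, a tubulin polymerising protein of ciliated cells, had 3301.3, 3306.6 and 2663 in Lip-C OBX mice, against 2581.9, 2069.7 and 2136.4 in Lip-O OBX mice (0.45 ± 0.12, adjusted p = 0.157). The 11 became 6 without Lip-O OBX replicate 1 and 13 without Lip-O OBX replicate 3.

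Of these calls, Gcnt7 and Odf2l were lost without any Lip-C OBX replicate or without Lip-O OBX replicate 1 (adjusted p up to 0.0801 and 0.0944), and Dnah7a without any Lip-C OBX replicate (up to 0.0545). Usp21 was lost without any OBX array but Lip-O OBX replicate 3 (adjusted p up to 0.106), and Tex52 without Lip-C OBX replicates 2 or 3 or Lip-O OBX replicates 1 or 2 (up to 0.105). Smim5 and Cyp2s1 lost their calls without nearly any array, sham arrays included: 11 of 12 for Smim5 (all but Lip-O OBX replicate 2; adjusted p up to 0.177) and all 12 for Cyp2s1 (up to 0.174).

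Among the genes that fell, Alb, Bhmt, Amy1, Slc35d2 and Ntn5 had their highest level in Lip-O OBX mice. Alb, which encodes albumin, had signals of 5.6, 41.3 and 10.2 in Lip-C OBX mice, where it was dim, against 526.6, 1184.3 and 151.3 in Lip-O OBX mice (adjusted p = 0.0334; 0.0541 without the filter and 0.0627 with a pseudocount of 1). It had 33.3, 10.7 and 6 in Lip-C sham mice and 47.5, 52.2 and 16.9 in Lip-O sham mice. Ttr, which encodes transthyretin, had 31.3, 44.2 and 2.1 in Lip-C OBX mice, against 173.4, 371.6 and 100.1 in Lip-O OBX mice (adjusted p = 0.0841). Serpina1b, an alpha-1 antitrypsin, had 59.9, 90.6 and 25.5 in Lip-C OBX mice, against 136.2, 244.5 and 64.1 in Lip-O OBX mice, so its groups overlapped (adjusted p = 0.308). In all 3 genes Lip-O OBX replicate 2 was the highest array and replicate 3 the lowest of its group. Apoa2 shared this order, with 117.9, 250.5 and 58.3 in Lip-O OBX mice, and its OBX groups overlapped. Rbp4 had the same order within Lip-O OBX mice, with 182.8, 196.3 and 120.6, but changed by 0.13 ± 0.22. Ahsg and Apoc1 did not share it, with 168, 117.9 and 119.1 and with 2433.4, 1870.4 and 1585.3 in Lip-O OBX mice. Bhmt, an enzyme that remethylates homocysteine in the liver, had 34.8, 42.3 and 48.2 in Lip-C OBX mice, where it was dim, against 123.4, 215.1 and 103.5 in Lip-O OBX mice (adjusted p = 0.0209). The source of these transcripts was not tested.

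Amy1, the salivary amylase, had 192.1, 174.2 and 148.1 in Lip-C OBX mice, against 330.5, 278.3 and 356 in Lip-O OBX mice (-0.85 ± 0.13, adjusted p = 0.0209). Slc35d2, a nucleotide sugar transporter of the Golgi, had 300.7, 293.2 and 267 in Lip-C OBX mice, against 610.6, 450.9 and 484.9 in Lip-O OBX mice (-0.80 ± 0.11, adjusted p = 0.0205), and 247.4, 264.9 and 215.7 in Lip-O sham mice. Ntn5, a secreted netrin, had 34.4, 29 and 16.6 in Lip-C OBX mice, where it was dim, against 81.6, 77.4 and 87.4 in Lip-O OBX mice (adjusted p = 0.0353; 0.0572 without the filter and 0.097 with a pseudocount of 1), and 11.6, 12.5 and 31.6 in Lip-O sham mice. Adamdec1, a secreted ADAM-like protease, had 1590.3, 1934.8 and 1781.3 in Lip-C OBX mice, against 3942.3, 2961.9 and 3209.6 in Lip-O OBX mice (-0.92 ± 0.12, adjusted p = 0.0143). It had 2213.5, 2558 and 2540.1 in Lip-C sham mice and 2809.9, 2684.9 and 2648.2 in Lip-O sham mice, so here the Lip-C OBX arrays were the lowest of all. For each of them the 2 OBX groups were separate, while changes in sham mice ran from -0.16 to 0.10 and did not pass.

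Grasp, a scaffold protein of receptors, had 873.4, 981.7 and 851.7 in Lip-C OBX mice, against 1991.4, 1921.6 and 1604.7 in Lip-O OBX mice (-1.01 ± 0.13, adjusted p = 0.0143), and a second probe set changed by -1.38. Cdyl2, a chromodomain protein, had 430.9, 462.1 and 399.1 in Lip-C OBX mice, against 905.3, 863.3 and 659.5 in Lip-O OBX mice (-0.88 ± 0.13, adjusted p = 0.0209). Elovl2, which lengthens polyunsaturated fatty acids, had 57.5, 78 and 68.7 in Lip-C OBX mice, where it was dim, against 125.8, 159.2 and 144.8 in Lip-O OBX mice (adjusted p = 0.0209). 3110040M04Rik was dim as well, with 37.9, 53 and 43 in Lip-C OBX mice, against 95.6, 105.5 and 104.8 in Lip-O OBX mice (adjusted p = 0.0205). No array crossed over between the groups in any of these genes. The other genes that fell were Gm16364 (-0.85), Rbm24, an RNA-binding protein (-0.74), Micalcl (-0.74), Calml4, which is calmodulin-like (-0.74), C630043F03Rik (-0.71), Pqlc3 (-0.60), Smchd1, a chromatin protein of the inactive X chromosome (-0.57), and Aamdc (-0.53). A second probe set of Smchd1 changed by 0.00, and 11 other probe sets of called genes had the same direction as the one used.

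Most calls among these falling genes were lost in more than 1 of the fits that left out an array. Such a fit also has fewer arrays, and how much that added to the losses was not tested. The call of Adamdec1 did not hold without Lip-C OBX replicate 1 (adjusted p = 0.0514), nor that of Calml4 once Lip-O OBX replicate 1 was removed (0.0517). Micalcl lost it without either of these (0.0579 and 0.079), and Grasp without either or without Lip-C OBX replicate 3 (0.0503 to 0.0674). Bhmt, Amy1, Slc35d2, Gm16364 and Aamdc lost theirs without any Lip-C OBX replicate or Lip-O OBX replicate 1, with adjusted p up to 0.0968, 0.106, 0.0661, 0.0796 and 0.106. Elovl2 and 3110040M04Rik lost theirs without Lip-C OBX replicates 1 or 3 or Lip-O OBX replicates 1 or 2 (both up to 0.0836). For Cdyl2, Rbm24 and Smchd1 this held for every OBX array but Lip-O OBX replicate 3 (up to 0.106, 0.0944 and 0.0846), and for Pqlc3 for all 6 (up to 0.129). Sham arrays mattered too for C630043F03Rik, lost without any OBX array, any Lip-C sham array or Lip-O sham replicate 2 (up to 0.19). The same was true of Ntn5, lost without any OBX or Lip-C sham array (up to 0.154). Alb lost its call without any OBX array but Lip-O OBX replicate 3, without Lip-C sham replicates 2 or 3 and without Lip-O sham replicates 1 or 2 (up to 0.169).

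In the supporting epithelium, Aldh1a7, an aldehyde dehydrogenase of sustentacular cells, had 3313, 3158.2 and 2672.1 in Lip-C OBX mice, against 4411.3, 4499.8 and 4323.9 in Lip-O OBX mice (-0.54 ± 0.08, adjusted p = 0.0243). Aldh1a7 also fell in sham mice (-0.64 ± 0.08). It was the sole gene of 22 in the sustentacular list to pass, 8 were lower at an unadjusted p under 0.05, and the median was -0.13. Cyp2g1, the main cytochrome P450 of these cells, had 16205, 17387.5 and 16145.2 in Lip-C OBX mice and 15762.3, 15330 and 17527.4 in Lip-O OBX mice, so the groups overlapped (0.03 ± 0.08). The count of 8 became 5 without Lip-C OBX replicate 2. Crabp1, which binds retinoic acid in the cytoplasm, had 1552.9, 1767.7 and 1967.8 in Lip-C OBX mice, against 3376.3, 3211 and 2394.8 in Lip-O OBX mice (-0.75 ± 0.13, adjusted p = 0.0379). Crabp1 and Aldh1a7 were the 2 of 15 genes of retinoid metabolism to fall, and 4 of the 15 were lower at an unadjusted p under 0.05. Their calls were lost without any OBX array but Lip-O OBX replicate 3 (adjusted p up to 0.11 for Aldh1a7 and 0.177 for Crabp1), and that of Crabp1 also without any sham array.

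Basal cells, glands and ensheathing glia gave no calls. Among 13 genes of horizontal basal cells, Krt5, their keratin, had 1117.8, 1280 and 793.4 in Lip-C OBX mice and 1027.9, 1125.6 and 916.9 in Lip-O OBX mice (0.03 ± 0.16), and Krt14 changed by -0.25 ± 0.17. Among 16 genes of Bowman glands and mucus, Aqp5, a water channel, changed by 0.00 ± 0.10 and Sox9, a factor of gland cells, by 0.19 ± 0.17. Sox10 and S100b, of 12 genes of ensheathing and Schwann cells, changed by -0.10 ± 0.19 and -0.12 ± 0.17. None of 25 growth factor genes passed. Bmp7, which macrophages and epithelia secrete, had 194.9, 179.9 and 216.1 in Lip-C OBX mice, against 234.9, 245.7 and 263.6 in Lip-O OBX mice (-0.31 ± 0.15, adjusted p = 0.402). None of 24 apoptosis genes passed. Bcl2l11, the death activator Bim, had 1546.7, 1766.9 and 1703.8 in Lip-C OBX mice, against 2019, 2128.6 and 2258.6 in Lip-O OBX mice, separate groups that missed the threshold (-0.35 ± 0.10, adjusted p = 0.161).

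Inflammatory genes gave no call, and most changes in 2 of their lists were below 0. Of 27 interferon response genes none passed, 26 had a change below 0, and the median was -0.42. At an unadjusted p under 0.05, 3 were lower, beside 6.08% of all genes. Mx1, an antiviral GTPase, had 97, 94.4 and 60.8 in Lip-C OBX mice, against 174, 120.9 and 154 in Lip-O OBX mice (-0.74 ± 0.33, adjusted p = 0.387). The mean level of the list was 8.54, 8.38 and 8.18 in Lip-C OBX mice, against 9.14, 8.59 and 8.73 in Lip-O OBX mice. All 9 acute phase genes had a change below 0, with a median of -0.57, and none passed. Saa3, a serum amyloid, had 52.3, 103.4 and 76.5 in Lip-C OBX mice, against 2434.6, 233.9 and 101.2 in Lip-O OBX mice, so 1 array held most of that difference (-2.19 ± 1.79). Lcn2, an iron-sequestering lipocalin, changed by -0.23 ± 0.66. The acute phase level on Lip-O OBX replicate 1 was 11.04, against 9.72 and 9.65 on the other Lip-O OBX arrays and 9.67, 9.29 and 9.09 in Lip-C OBX mice.

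The same Lip-O OBX array was also high in other immune lists. Il1b, the inflammasome cytokine, had 153, 136.3 and 147 in Lip-C OBX mice, against 421.8, 175.5 and 112.9 in Lip-O OBX mice (-0.46 ± 0.92). Cd74, the class II invariant chain, had 1805.2, 1946.3 and 933.2 in Lip-C OBX mice, against 5494.2, 1530.6 and 1027.7 in Lip-O OBX mice (-0.46 ± 0.56), and H2-Aa, a class II chain, changed by -0.22 ± 0.35. Ccl2, which attracts monocytes, was dim in Lip-C OBX mice with 79, 18.2 and 56.8, against 95.6, 50.5 and 87.6 in Lip-O OBX mice. None of 27 chemokine and cytokine genes, of 10 class II and dendritic cell genes or of 12 complement genes passed. C1ra, a protease of the first complement component, had 185.6, 185.4 and 163 in Lip-C OBX mice, against 469.4, 186.8 and 200.9 in Lip-O OBX mice (-0.52 ± 0.31). Without Lip-O OBX replicate 1 no interferon gene was lower at an unadjusted p under 0.05, and the median of that list was -0.27. That count was 1 without Lip-C OBX replicate 3, 5 without Lip-C sham replicate 2 and 7 without Lip-O sham replicate 1. Standard errors pool the spread of all 4 groups, so a stray sham array widens them. Lip-O sham replicate 1 stood far above its group in Saa3 (8046.7, against 51.4 and 60.1) and Il1b (2259.1, against 123.3 and 107.4). Missing the threshold therefore does not show that such genes were equal between the OBX groups.

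Glucocorticoid-responsive genes had medians of opposite sign under the 2 operations. Fkbp5, an immunophilin induced by the glucocorticoid receptor, had 593.2, 521.8 and 630.7 in Lip-C OBX mice, against 1159.5, 722 and 1183.7 in Lip-O OBX mice (-0.77 ± 0.17, adjusted p = 0.102). In sham mice it rose, with 1057.4, 1004.9 and 1140.6 in Lip-C sham mice, against 634, 563.4 and 607 in Lip-O sham mice (0.81 ± 0.17, adjusted p = 0.0393). Tsc22d3, a leucine zipper protein of the same response, had 1513.1, 1529 and 1212.3 in Lip-C OBX mice, against 3080, 1491.5 and 2776.4 in Lip-O OBX mice (-0.72 ± 0.23, adjusted p = 0.222). Lip-O OBX replicate 2 was the low array of its group in both genes, and without it both passed (adjusted p = 0.0177 for Fkbp5 and 0.0251 for Tsc22d3). Of 17 such genes none passed, 4 were lower at an unadjusted p under 0.05, and the median was -0.18 in OBX mice and 0.39 in sham mice. The 4 became 7 without Lip-O OBX replicate 2. The difference between the operations, tested as an interaction, gave an adjusted p of 0.0747 for Fkbp5 and 0.0782 for Tsc22d3.

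**Figure D4:**
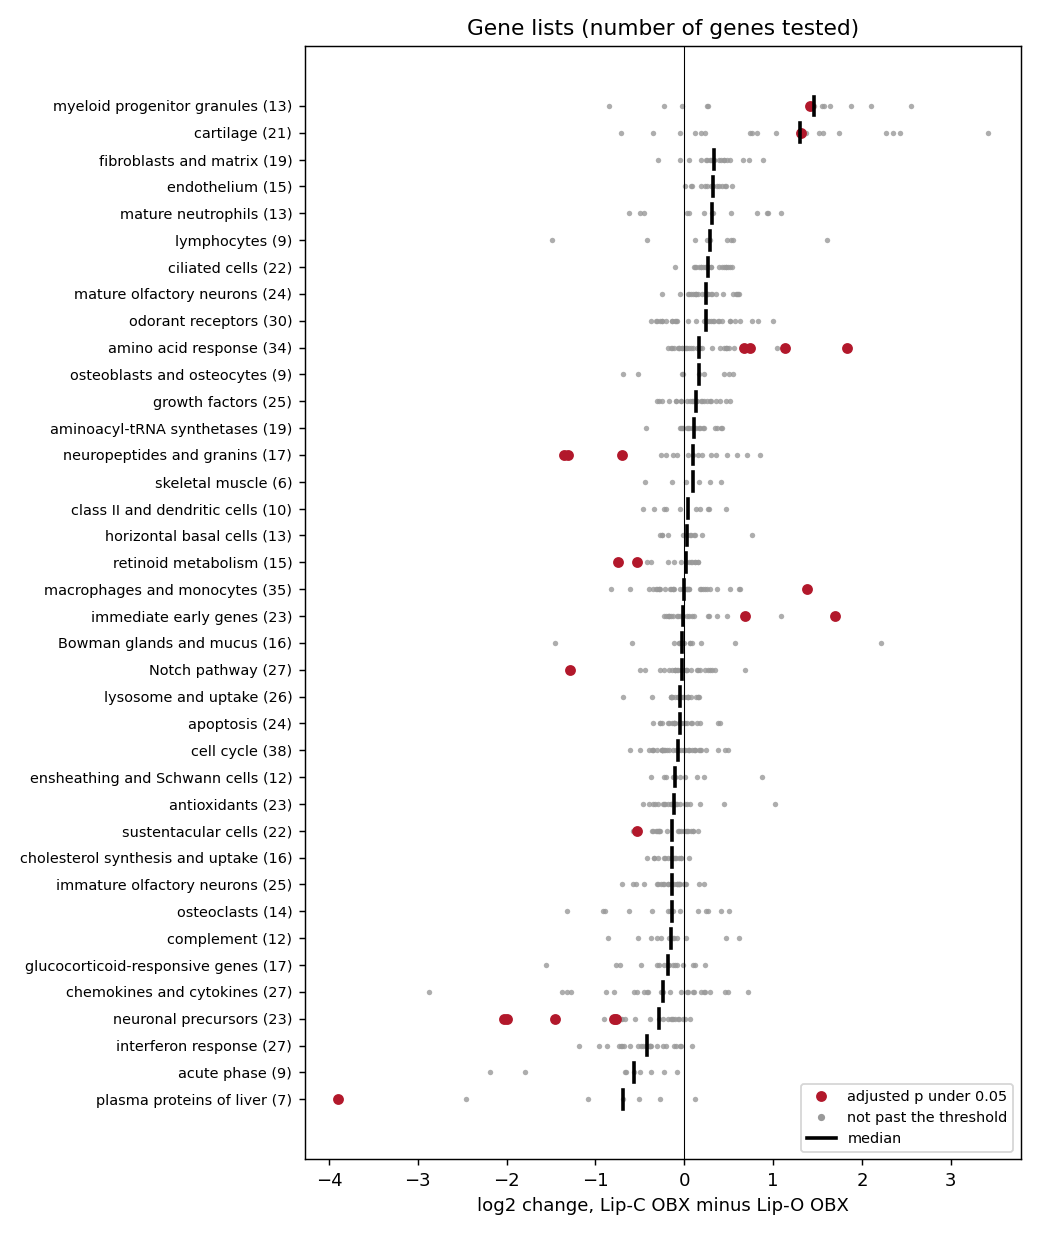
Log2 change (Lip-C OBX minus Lip-O OBX) of each tested gene in the gene lists, with the number tested in brackets, red points for genes past the threshold, grey points for the others and black bars for list medians. The medians run from -0.69 for plasma proteins to 1.46 for myeloid progenitor granules, and red points lie on the lower side for neuronal precursors and on the upper side for the amino acid response.

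Genes of cartilage were also detected, and Chad rose. Chad, a leucine-rich protein of cartilage matrix, had 1137.4, 1002.8 and 567.2 in Lip-C OBX mice, against 319.6, 363.6 and 332.7 in Lip-O OBX mice (1.32 ± 0.21, adjusted p = 0.0243). It was the sole one of 21 tested cartilage genes to pass, while 13 were higher at an unadjusted p under 0.05, 18 had a change above 0 and the median was 1.31. Acan, the aggregating proteoglycan of cartilage, had 1228.4, 995.8 and 341.5 in Lip-C OBX mice, against 92.8, 191.1 and 136.2 in Lip-O OBX mice (2.35 ± 0.48, adjusted p = 0.0829). Col2a1, its main collagen, had 1208.8, 1198.6 and 314 in Lip-C OBX mice, against 114.1, 262.8 and 103.2 in Lip-O OBX mice (2.28 ± 0.62, adjusted p = 0.163). Lip-C OBX replicate 3 was the lowest of its group for all 3, yet above every Lip-O OBX array. Without it Acan passed (adjusted p = 0.0297). The mean level of the list was 9.27, 9.08 and 8.16 in Lip-C OBX mice, against 7.53, 7.89 and 7.74 in Lip-O OBX mice, and no tested member was at 0. How much cartilage each dissection held, and its part in the other results, was not tested.

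Of 9 osteoblast and osteocyte genes none passed, 5 had a change above 0 and 4 below, and the median was 0.16. Of 14 osteoclast genes none passed, 5 had a change above 0 and 9 below, and the median was -0.14. At an unadjusted p under 0.05 Acp5, Ctsk and Oscar, dim in both OBX groups, were lower, beside 6.08% of all genes. Nfatc1 was higher, beside 6.61%. With 1 array left out the number lower ran from 0 to 5. Ibsp, a bone matrix protein, had 1725.5, 2864.6 and 1634.6 in Lip-C OBX mice, against 3855.6, 3467.9 and 2544.4 in Lip-O OBX mice (-0.69 ± 0.21, adjusted p = 0.214). Acp5, the acid phosphatase of osteoclasts, had 476.8, 1570.2 and 470.4 in Lip-C OBX mice, against 2908.4, 2526.5 and 782.9 in Lip-O OBX mice (-1.32 ± 0.54, adjusted p = 0.342). Ctsk, their collagen-cleaving protease, changed by -0.89 ± 0.37 (adjusted p = 0.352). In sham mice Acp5 fell by 3.06 and Ctsk fell by 2.37 on the log2 scale (adjusted p = 0.0284 and 0.0215). Of 19 fibroblast and matrix genes none passed, with a median of 0.34. Col1a1 changed by 0.48 ± 0.60 and Col1a2, the other chain of type I collagen, by 0.25 ± 0.32. All 15 endothelial genes had a change above 0, beside 51.3% of all genes, with a median of 0.32. None passed and 7 were higher at an unadjusted p under 0.05, beside 6.61% of all genes. That count became 3 without Lip-C OBX replicate 1 or Lip-O OBX replicates 1 or 3, and 2 without Lip-C OBX replicate 2. Pecam1, an adhesion molecule of vessels, changed by 0.23 ± 0.19 and Cdh5, their cadherin, by 0.30 ± 0.11. The Chad call was lost without any OBX array but Lip-C OBX replicate 3 (adjusted p from 0.0566 to 0.132).

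The remaining lists gave no calls. Of 23 antioxidant genes none passed. Hmox1, which breaks down haem, changed by 0.18 ± 0.21, and Nqo1, a quinone reductase, by -0.23 ± 0.25. Of 16 genes of cholesterol synthesis and uptake 15 had a change below 0, with Hmgcs1, an early enzyme of the pathway, at -0.11 ± 0.14. Among 6 skeletal muscle genes Acta1, the actin of muscle, changed by 0.16 ± 0.22. Ckm, the creatine kinase of muscle, was dim in both groups. Small sets of 9 lymphocyte, 2 mast cell and 3 erythroid genes held no call either.

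The same treatment without bulbectomy, compared between the sham groups in the model of all 4 groups, changed 286 genes (2.1%), 175 higher (1.28%) and 111 lower (0.814%). Both comparisons use the spread of a gene over all 4 groups, so their calls are not independent. Leaving out Lip-C OBX replicate 2, which is no sham array, gave 148 sham calls. Of the 47 genes called in OBX mice, 19 were also called in sham mice in the same direction, which is 40.4% of the 47 and 6.64% of the 286. The 4 that rose in both were Chac1, Asns, Fgf21 and Ms4a3, and the 15 that fell in both included Neurog1 (-1.34 in sham mice), Neurod1 (-1.63), Grp (-1.57), Scg2 (-1.43), Mfng (-0.94) and Stil (-1.16). With the replicate number as a block the sham call of Smchd1, 1 of these 15, was lost (adjusted p = 0.0563). None was called in opposite directions. Of the 17 genes that rose in OBX mice 14 had a change above 0 in sham mice, and of the 30 that fell 28 had a change below 0, beside 50.6% of all genes with a sham change above 0. The test of the difference between the operations called no gene (0%) in limma, with 2405 at an unadjusted p under 0.05 (17.6%), and the lowest adjusted p was 0.0747. The 47 genes were chosen on the OBX part of that difference, which by itself raises their share. Among them, 25 had an unadjusted p under 0.05 for it. The largest were Nr4a3 (1.68 ± 0.34, adjusted p = 0.08) and Gcnt7 (1.34 ± 0.32, adjusted p = 0.0959) on the side of a higher change in OBX mice, and Bhmt (-1.26 ± 0.31, adjusted p = 0.104) and Alb (adjusted p = 0.136) on the other. Leaving out Lip-O OBX replicate 2 gave 155 calls for this difference, leaving out Lip-C OBX replicate 3 gave 3, and every other such fit gave 0.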

How the data were processed

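Epithelial RNA from 12 samples, 3 in each of 4 groups, was labelled with biotin and hybridised to 1-colour Affymetrix arrays, per the labels' protocols. The authors deposited linear intensity values per probe set, scaled to 1 level per array (trimmed mean 500.002 or 500.003), and the algorithm that summarised the probes was not stated. After removal of 64 control probe sets, 28986 of 45101 probe sets were kept, those brighter than the 40th percentile of their array in 3 or more of the arrays. Symbols came from the platform annotation, updated through RefSeq (34945 probe sets with 1 gene, 932 with several, 9160 with none; 34741 matched). Each gene was read from its brightest probe set. Values were analysed as log2(signal + 16) in limma 3.58.1 under R 4.3.3, with 1 mean per group, eBayes and Benjamini-Hochberg adjustment over 13628 genes. The number of arrays limits the precision. Alternatives covered pseudocount, filter, probe set choice, normalization, replicate block, prior and each array left out.

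No 2 arrays shared more than 0.315% of values. Deviations of same-numbered samples correlated at 0.08, 0.16 and 0.25 between Lip-C OBX and Lip-O OBX, where 1 pair missed the 0.1 set for pairing, at 0.33, 0.12 and 0.10 between Lip-C sham and Lip-O sham and at 0.31, 0.28 and 0.13 between Lip-O OBX and Lip-O sham, where none did, and at -0.33 to 0.18 for other numbers. The fit was tested on simulated data for Lip-C OBX against Lip-O OBX with 13628 genes. It recovered 50.7%, 79.1% and 98.5% of changes of 0.5, 1 and 2 on the log2 scale, with 3.8% of calls false. Whether these shares hold for the arrays themselves was not tested. Named genes are the 15 largest rises and falls past the threshold with separate groups, other genes past it, and of each list the members past it and the first 2 as written. Tac1, Chga, Csf1r, Mrc1, Fcgr1, Emilin2, Nhlh2, Elavl4, Aldh18a1, Shmt2, Phgdh, Atf4, Ddit3, Trib3, Nr4a2, Fos, Egr1, Serpina1b, Ahsg, Apoa2, Apoc1, Rbp4, Oscar, Nfatc1 and Col2a1 were named after their values were seen. The members and lists were chosen with earlier results of these data known.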

Additional observations from a re-analysis of the deposited data

Results flagged for a closer look

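Of the genes past the threshold and the first 2 of each list, 3 were such that every Lip-C array lay on 1 side of every Lip-O array after bulbectomy and on the opposite side after sham surgery, which held for 305 of all 13628 genes (2.24%). Nr4a1 had a log2 change of 0.69 in OBX mice and -0.36 in sham mice. Dnah7a had 0.58 in OBX mice and -0.11 in sham mice. Fkbp5 had -0.77 in OBX mice and 0.81 in sham mice. The difference between the operations was tested as an interaction in limma and missed the threshold in all 3, with adjusted p of 0.0747 for Nr4a1 and Fkbp5 and 0.0762 for Dnah7a.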

How the results depend on the processing

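Over 23 alternative settings none of the 47 called genes changed sign, and Neurod1 passed the threshold in each of them. Of 51 other genes followed, 18 changed sign in at least 1 setting, 0 of these with an adjusted p under 0.05 in limma: Adgre1, Aqp5, Cd68, Cd74, Col1a1, Col1a2, Ctsd, Cyp2g1, Gap43, H2-Aa, Hmgcs1, Il1b, Krt5, Lamp1, Mki67, Nqo1, S100b and Sox10. The 47 calls in OBX mice became 72 with a filter at the 60th percentile (39 shared), 97 with a trended and robust prior (45 shared), 7 without moderation of the variance and 2 with the 6 OBX arrays alone, and ranged from 7 to 76 with 1 array left out. Genes higher with Lip-C became 26 with a pseudocount of 64, 30 with that filter, 35 with that prior, 1 without moderation and 0 with the OBX arrays alone in limma, where 1393 genes had an unadjusted p under 0.05, and ranged from 1 to 32 with 1 array left out. Genes lower with Lip-C became 62 with that prior, 6 without moderation and 2 with the OBX arrays alone, and ranged from 6 to 44. Calls in sham mice became 56 without a filter, 548 with the stricter one and 615 with that prior, and ranged from 17 to 314. Calls for the interaction became 1 without a filter, 85 with the stricter one and 107 with that prior, ranged from 0 to 155, and could not be computed from the OBX arrays alone. Calls for Lip-O OBX against Lip-O sham ranged from 1403 to 2793. The stricter filter tested 10674 genes and no filter 18193; beyond the number of genes or samples the cause of these moves was not tested. A fit with the replicate number as a block gave 45 calls, 37 of them shared, where the numbers were not taken to pair the OBX samples. The 10 calls it did not make were Aldh1a7, Asns, C630043F03Rik, Crabp1, Cyp2s1, Ms4a3, Ntn5, Rab44, Smim5 and Usp21 (adjusted p from 0.0507 to 0.0739). In sham mice, whose numbers met the rule for pairing, the block gave 329 calls, 214 of them shared with the 286. Dim probe sets limit what can be said of Alb, St18, Bhmt, Ntn5, Elovl2, 3110040M04Rik, Fgf21 and Rab44.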
